A study of Mus musculus with 17 samples.

Results

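The regions described here are promoters that were open in naïve B cells and less open in plasma cells. They were chosen from an ATAC-seq table of 66177 accessible regions of the mouse genome (build mm9) by their levels in control animals. A region was taken if the table assigned it to a promoter, if it lay off chrX, chrY and chrM, if its mean level in the control naïve B cell libraries was at least 5 RPPM (the reads in a region per 1000000 reads in all regions of that library), and if that mean was at least 2 times the mean of the control plasma cell libraries. The rule found 842 regions, 6.07% of the 13880 promoter regions off chrX, chrY and chrM and 1.27% of all regions. They belonged to 764 genes. Because the levels in control naïve B cells and control plasma cells chose these promoters, those levels are given below as a description, and differences are tested between libraries that the rule did not use. The spread in those tests was estimated over all libraries together.

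ATAC-seq marks accessible chromatin by the cuts that Tn5 transposase makes in it. Naïve B cells (nB) were B220+ Fas- GL7- cells of the lymph nodes of naïve mice, all male. Germinal center B cells (GCB) were B220+ Fas+ GL7+ cells binding phycoerythrin (PE) from lymph nodes. For GCB 2 mice were pooled per library, and mice of both sexes were used. Bone marrow plasma cells (BMPC) were CD138+ cells of female mice. GCB and BMPC were taken 30 days after immunization with PE in complete Freund's adjuvant. Controls (C, Dnmt3-sufficient) were Dnmt3afl/flDnmt3bfl/fl without Cre and the deficient animals (KO, Dnmt3-deficient) were Dnmt3afl/flDnmt3bfl/fl with 1 allele of a B cell Cre, so every animal carried floxed Dnmt3a and Dnmt3b alleles (mice listed as B6;129S4-Dnmt3atm3.1Enl with Dnmt3btm5.1Enl/Mmnc). The Cre is active from early B cell development on. The 16 libraries were 3 C nB, 2 KO nB, 2 C GCB, 4 KO GCB, 3 C BMPC and 2 KO BMPC. Cell type, sex, tissue and immunization cannot be told apart between nB and BMPC. Between nB and GCB, cell type cannot be told apart from immunization, and the make-up by sex also differed.

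Accessible promoters are bound by transcription factors and by the machinery that starts transcription. When a B cell becomes a plasma cell it stops presenting antigen and stops signaling through its surface receptor, loses the B cell regulators such as Pax5, and turns to secreting antibody. Dnmt3a and Dnmt3b add methyl groups to unmethylated CpG sites, and CpG-rich promoters are in most cells free of methylation.

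Reads in regions numbered 4104875 to 6079018 per nB library, 907959 to 2280954 per GCB library and 5357687 to 8232313 per BMPC library, so 1 read was worth 0.121 to 1.10 RPPM and low values were least certain in GCB. Summed promoter levels of the plasma cell markers (Sdc1, Prdm1, Xbp1, Irf4, Tnfrsf17, Ell2) were 324 to 374 RPPM in nB and 409 to 448 in BMPC, and those of the germinal center list 188 to 213 in nB, 210.4 to 256 in GCB and 182 to 199 in BMPC. Of genes listed as markers of other cells, 1 of 7 T cell genes (Cd28) had a promoter region, at 2.23 to 3.13 RPPM in nB and 27.4 to 31.8 in BMPC. The other T cell genes of the list had none. Promoter regions of 3 of 8 myeloid genes (Elane, Cebpe, Itgam) summed to 23.2 to 33.1 RPPM in nB and 51.1 to 63.3 in BMPC. Of these the 2 Cebpe regions were higher in BMPC, while Itgam had 5.04 ± 0.38 RPPM in KO nB and 0.89 ± 0.46 in KO BMPC (SD, n = 2). No region was assigned to the promoters of Cd3e, Cd4, Lyz2, Mpo or Klf1. The part of such cells in the levels below was not tested. In bulk libraries, fewer cells of a type and less opening per cell cannot be told apart.

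Windows of 300 bases at the centre of 4 of the closing promoters are printed here as examples. Those of Aff3, Fas and Insig2 come from CpG-poor regions upstream of genes for a death receptor (Fas), a B cell regulator (Aff3) and a sterol regulator (Insig2), and hold the letters GGAAGT or their reverse complement ACTTCC, the core bound by PU.1 and related ETS factors, in capitals. The Lef1 window is from the CpG-rich promoter region of Lef1, with each CG in capitals. All 4 were picked by the size of their fall from KO nB to KO BMPC, among windows without an exon. Those of Aff3, Fas and Insig2 were also picked for holding GGAAGT or ACTTCC, so they are not a sample of all closing promoters. The Aff3 and Lef1 regions were moreover taken in for printing after their values were seen. All are mm9, plus strand, 5′ to 3′.
Aff3, chr1:38722455-38722754: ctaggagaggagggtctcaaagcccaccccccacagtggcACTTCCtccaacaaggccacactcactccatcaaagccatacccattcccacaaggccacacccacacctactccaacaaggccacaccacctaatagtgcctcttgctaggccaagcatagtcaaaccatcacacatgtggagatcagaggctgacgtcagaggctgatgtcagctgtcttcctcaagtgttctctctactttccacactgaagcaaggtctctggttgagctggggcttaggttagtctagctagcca
Fas, chr19:34362875-34363174: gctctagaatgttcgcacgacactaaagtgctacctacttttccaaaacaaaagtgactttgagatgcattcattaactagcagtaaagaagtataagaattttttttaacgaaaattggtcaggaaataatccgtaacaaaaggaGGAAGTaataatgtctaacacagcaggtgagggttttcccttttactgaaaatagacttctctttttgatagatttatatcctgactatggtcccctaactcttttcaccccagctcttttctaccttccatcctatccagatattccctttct
Insig2, chr1:123211442-123211741: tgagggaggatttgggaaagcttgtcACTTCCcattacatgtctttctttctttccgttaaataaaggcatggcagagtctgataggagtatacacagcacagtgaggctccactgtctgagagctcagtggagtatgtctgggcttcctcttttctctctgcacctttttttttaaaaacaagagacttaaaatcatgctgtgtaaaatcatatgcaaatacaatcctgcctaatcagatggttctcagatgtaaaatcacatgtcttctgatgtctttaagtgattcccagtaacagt
Lef1, chr3:130815035-130815334: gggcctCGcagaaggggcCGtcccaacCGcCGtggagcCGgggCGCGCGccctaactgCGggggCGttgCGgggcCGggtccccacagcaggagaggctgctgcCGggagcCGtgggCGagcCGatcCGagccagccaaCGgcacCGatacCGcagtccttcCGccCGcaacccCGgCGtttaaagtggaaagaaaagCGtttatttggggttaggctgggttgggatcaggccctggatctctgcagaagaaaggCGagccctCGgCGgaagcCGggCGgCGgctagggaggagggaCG
The Aff3 window held 1 CG and the Lef1 window held 32. The observed over expected CpG ratio, which compares the count of CG with what the C and G content would give, was 0.0497 for Aff3, 0.417 for Fas, 0.0833 for Insig2 and 0.906 for Lef1.

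The 842 promoters were most open in nB, less so in GCB and least in BMPC. Their median was 17.2, 17.0 and 16.7 RPPM in the 3 C nB libraries and 17.0 and 16.7 in the 2 KO nB libraries. In GCB it was 11.0 and 10.8 in C and 11.0, 10.8, 11.0 and 10.5 in KO. In BMPC it was 4.42, 3.28 and 3.27 in C and 4.25 and 4.29 in KO. Libraries of 1 cell type lay close together and those of different cell types did not overlap, which for C nB and C BMPC the rule itself set. The first C BMPC library lay with the 2 KO BMPC libraries rather than with the other 2 C BMPC libraries. The median over all promoter regions did not fall in this way: it ran from 30.1 to 31.9 RPPM in nB, 23.8 to 25.8 in GCB and 34.0 to 35.2 in BMPC. The closing promoters took 1.95% to 1.99% of the reads of each nB library and 0.494% to 0.601% of those of each BMPC library.

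**Figure D1:**
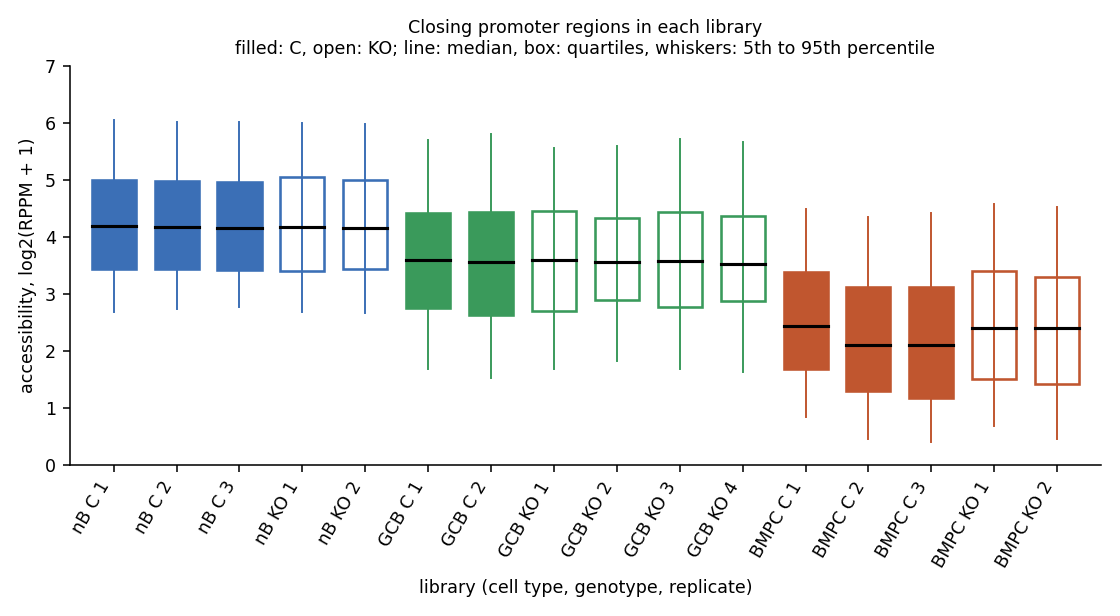
Accessibility on the log2(RPPM + 1) scale of the 842 closing promoters in each of the 16 libraries, with boxes for quartiles, lines for medians and whiskers from the 5th to the 95th percentile, where filled boxes are C and open boxes KO. The medians, in RPPM, lie at 16.7 to 17.2 in nB, 10.5 to 11.0 in GCB and 3.27 to 4.42 in BMPC.

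In the C libraries that chose them, the nB level was a median of 3.86 times the BMPC level (quartiles 2.58 and 7.58). The ratio was at least 4 for 408 promoters and at least 10 for 154. The promoters nearest to the limit inside it were Mir142 (ratio 2.00), the gene of a blood cell microRNA, and Pltp (2.00), and the nearest outside it were Sepp1 (1.999), Rogdi (1.997) and Wwc2 (1.99).

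The same fall was present in the KO libraries. Of the 842 promoters, 655 (77.8%) were called lower in KO BMPC than in KO nB and 0 were called higher (limma with Benjamini-Hochberg adjustment over all regions, adjusted p of at most 0.01 and a log2 change of at least 1 on the log2(RPPM + 1) scale). Over all 66177 regions 16.9% were called lower and 18.4% higher, and over the 13880 promoter regions 5.82% were called lower and 11.6% higher. At an unadjusted p under 0.05, 781 of the 842 were lower and 0 higher, and the share over all regions at this limit was not counted. The median log2 change was -1.64 (quartiles -2.34 and -1.12), beside 0.08 over all regions, and 835 of 842 changes were negative. Both KO BMPC libraries lay below both KO nB libraries at 819 promoters (97.3%), beside 37.0% of all regions. With 390 of 408 called lower, the promoters with a C ratio of at least 4 had the higher share (95.6%), and among those with a ratio of 2 to 4 it was 61.1%.

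**Figure D2:**
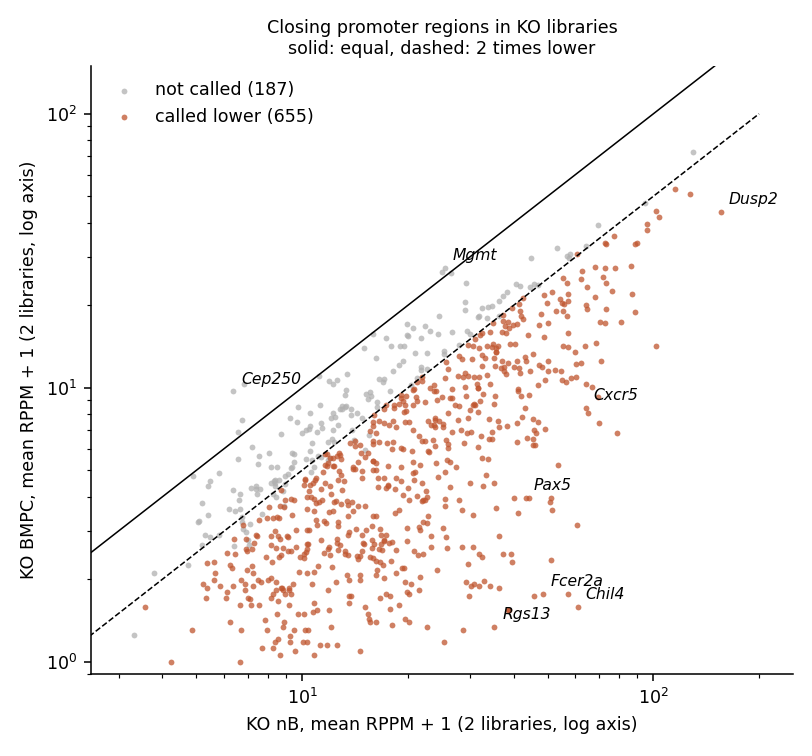
Mean level in KO nB (horizontal) against mean level in KO BMPC (vertical), both as RPPM + 1 on log axes and over 2 libraries each, with 1 point per closing promoter. The 655 promoters called lower are in colour, the solid line marks equal levels and the dashed line a 2-fold lower level, and nearly all points lie below the solid line.

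The MHC class II and antigen presentation list gave 14 closing promoters, of 8 of its 17 genes with a promoter region, and all 14 were called lower in KO BMPC than in KO nB (median log2 change -1.71). Of the list's 29 promoter regions, 16 were called lower and 1 higher. H2-DMb2, a subunit of the editor that loads peptides onto class II molecules, had the highest level of them. Its region at the start of the gene, chr17:34281605-34282382, had 95.5, 106 and 97.3 RPPM (C) and 99.9 and 102 (KO) in nB, 79.6 and 80.1 (C) and 51.8, 50.3, 74.1 and 68.5 (KO) in GCB, and 10.4, 9.85 and 12.1 (C) and 13.2 and 13.1 (KO) in BMPC. All 5 BMPC libraries lay far below all 5 nB libraries and below all 6 GCB libraries, and the log2 change from KO nB to KO BMPC was -2.85 ± 0.16 (SE, adjusted p 1.02e-13). Log2 changes are given ± SE and mean levels ± SD throughout. H2-Aa, which encodes the class II alpha chain that pairs with the H2-Ab1 beta chain, had 94.5, 88.7 and 90.3 RPPM (C) and 90.1 and 88.0 (KO) in nB, 34.3 and 38.9 (C) and 38.5, 35.6, 30.3 and 30.1 (KO) in GCB, and 35.1, 42.9 and 39.4 (C) and 30.6 and 34.9 (KO) in BMPC. Here KO GCB lay at the BMPC level: the change from KO nB was -1.39 ± 0.13 to GCB and -1.42 ± 0.14 to BMPC, and that from GCB to BMPC was -0.03 ± 0.13 (adjusted p 0.847). H2-Ab1, 1215 bases upstream of the start, fell by the same order, from 70.7 ± 2.73 RPPM (mean ± SD, n = 2) to 24.3 ± 1.24 (n = 2), a log2 change of -1.50 ± 0.17. The 2 closing regions of H2-Eb1, another beta chain, which also had a stable one, changed by -2.03 ± 0.17 and -1.74 ± 0.22. H2-Ob, a subunit of the inhibitor of that editor, changed by -1.68 ± 0.15 and H2-DMb1 by -1.68 ± 0.15. H2-DMb1 and H2-DMb2 are near-identical copies, so their reads could have been split between them.

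The B cell receptor list gave 18 closing promoters of 14 of its 33 genes with a promoter region, of which 17 were called lower in KO BMPC (median log2 change -2.01). Of its 57 promoter regions, 19 were called lower and 2 higher. Ms4a1, which encodes the surface protein CD20, had 84.3, 78.4 and 78.0 RPPM (C) and 79.5 and 80.7 (KO) in nB, 88.4 and 82.9 (C) and 54.0, 78.3, 80.2 and 64.3 (KO) in GCB, and 14.6, 11.7 and 13.9 (C) and 16.6 and 16.2 (KO) in BMPC. The 2 nB groups and C GCB lay together, KO GCB reached down to 54.0, and BMPC lay apart from all of them, with a change of -2.22 ± 0.16 from KO nB (adjusted p 6.86e-12) and of -0.23 ± 0.14 to KO GCB (adjusted p 0.176). Fcer2a, the low-affinity IgE receptor CD23 of resting B cells, had 36.8, 43.7 and 46.7 RPPM (C) and 45.9 and 49.2 (KO) in nB, 14.1 and 14.5 (C) and 17.6, 9.55, 19.3 and 16.1 (KO) in GCB, and 0.910, 0.365 and 2.34 (C) and 0.972 and 0.560 (KO) in BMPC. Its GCB libraries lay between nB and BMPC without overlap, and its change from KO nB to KO BMPC was -4.79 ± 0.32 (adjusted p 1.95e-12). Blk, a kinase of the Src family that acts below the receptor, changed by -2.33 ± 0.17, from 59.2 ± 5.19 to 11.2 ± 3.72 RPPM. Siglecg and Cd72 encode inhibitory receptors. The log2 change was -2.42 ± 0.22 for Siglecg and, for the 2 closing regions of Cd72, -1.42 ± 0.15 and -2.74 ± 0.22. The Cd72 region 1938 bases upstream had 13.6 ± 1.07 RPPM in KO GCB (n = 4) and the one at the start had 42.4 ± 3.02, from similar levels in KO nB. Fcrla, an Fc receptor-like protein of B cells, changed by -2.64 ± 0.19.

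The B cell transcription factor list gave 19 closing promoters of 14 of 37 genes, of which 11 were called lower in KO BMPC (median log2 change -1.33), and 12 of the list's 81 promoter regions were called lower and 4 higher. Pax5, the factor that keeps B cell identity, had 45.3, 36.0 and 39.5 RPPM (C) and 47.7 and 37.0 (KO) in nB, 23.8 and 24.8 (C) and 15.4, 23.5, 23.7 and 20.3 (KO) in GCB, and 3.77, 2.74 and 2.02 (C) and 3.89 and 2.05 (KO) in BMPC at chr4:44723526-44724126. No library of 1 cell type overlapped those of another, and the change from KO nB was -3.48 ± 0.26 to BMPC (adjusted p 1.27e-11). Hhex, a homeobox regulator, had 39.5, 36.4 and 39.1 RPPM (C) and 39.0 and 41.3 (KO) in nB, 12.3 and 11.2 (C) and 9.91, 9.55, 11.4 and 9.09 (KO) in GCB, and 12.6, 8.39 and 7.94 (C) and 9.60 and 8.21 (KO) in BMPC. Its GCB and BMPC libraries overlapped and both lay far below nB, with changes from KO nB of -1.91 ± 0.19 to GCB and -2.06 ± 0.22 to BMPC. Bcl11a, of a zinc finger repressor, had 3 closing regions, which changed by -1.49 ± 0.19, -1.29 ± 0.19 and, at the start, -1.77 ± 0.35, and the last is named after its value was seen. Id3, an inhibitor of E proteins, changed by -1.67 ± 0.18, and all of these were called lower. Among the named ones 3 more had a smaller difference and were not called. Spib, an ETS factor of B cells, had 56.5 ± 1.10 RPPM in KO nB and 28.7 ± 2.14 in KO BMPC, a log2 difference of -0.95 ± 0.15. Nr4a1, an early gene of receptor signaling, had a difference of -0.80 ± 0.20 and the start region of Aff3, -0.60 ± 0.19 (adjusted p 0.0102).

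Homing and adhesion genes gave 8 closing promoters of 5 of 20 genes, of which 6 were called lower in KO BMPC (median log2 change -2.01), and of the list's 28 promoter regions 6 were called lower and 1 higher. Ccr7, the chemokine receptor that guides cells to the T cell zone, had 57.0, 64.1 and 59.0 RPPM (C) and 60.9 and 56.7 (KO) in nB, 12.8 and 17.8 (C) and 13.2, 12.1, 16.7 and 9.79 (KO) in GCB, and 16.5, 15.3 and 15.4 (C) and 14.5 and 10.5 (KO) in BMPC. GCB and BMPC overlapped and lay well below nB, and the change was -2.12 ± 0.18 from KO nB to KO GCB and -2.17 ± 0.21 to KO BMPC. Cxcr5, which guides B cells into follicles, had 62.1, 58.4 and 67.4 RPPM (C) and 66.6 and 60.0 (KO) in nB, 33.4 and 31.9 (C) and 23.1, 30.6, 23.7 and 25.2 (KO) in GCB, and 9.36, 5.11 and 7.63 (C) and 8.75 and 6.16 (KO) in BMPC. Its GCB libraries lay between those of nB and BMPC, with a change to KO BMPC of -2.94 ± 0.21. For the cannabinoid receptor gene Cnr2, the start region changed by -2.93 ± 0.30 and the upstream one had a difference of -1.26 ± 0.41 that was not called (adjusted p 0.0116). The 2 closing regions of the chemokine receptor gene Ccr6 changed by -1.20 ± 0.35 and -2.89 ± 0.40, and at the second KO BMPC had 0.243 and 0 RPPM.

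Of cytokine, TNF and Toll-like receptor genes, 11 promoters of 8 of 26 genes were closing, 9 of them called lower in KO BMPC (median log2 change -1.78), and 9 of the list's 37 promoter regions were called lower and 2 higher. Il21r, the receptor for a T helper cytokine, had 39.7, 40.3 and 39.1 RPPM (C) and 33.2 and 34.2 (KO) in nB, 51.5 and 58.1 (C) and 46.3, 46.5, 58.3 and 57.3 (KO) in GCB, and 11.1, 8.21 and 9.34 (C) and 3.89 and 7.09 (KO) in BMPC at its start. GCB lay above nB without overlap and BMPC lay below both, and the change from KO nB to KO BMPC was -2.47 ± 0.20. The neighbours Lta, Tnf and Ltb, which encode TNF family cytokines, changed by -2.00 ± 0.33, -2.10 ± 0.30 and -1.83 ± 0.25. Il10ra, a subunit of the IL-10 receptor, had a region 1363 bases upstream that changed by -3.53 ± 0.30, from 21.1 and 14.8 RPPM to 0.486 and 0.747, and a start region that was not called, from 16.8 and 14.4 to 9.47 and 10.1 (adjusted p 0.0521). Tlr6, a Toll-like receptor, changed by -1.14 ± 0.16.

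**Figure D3:**
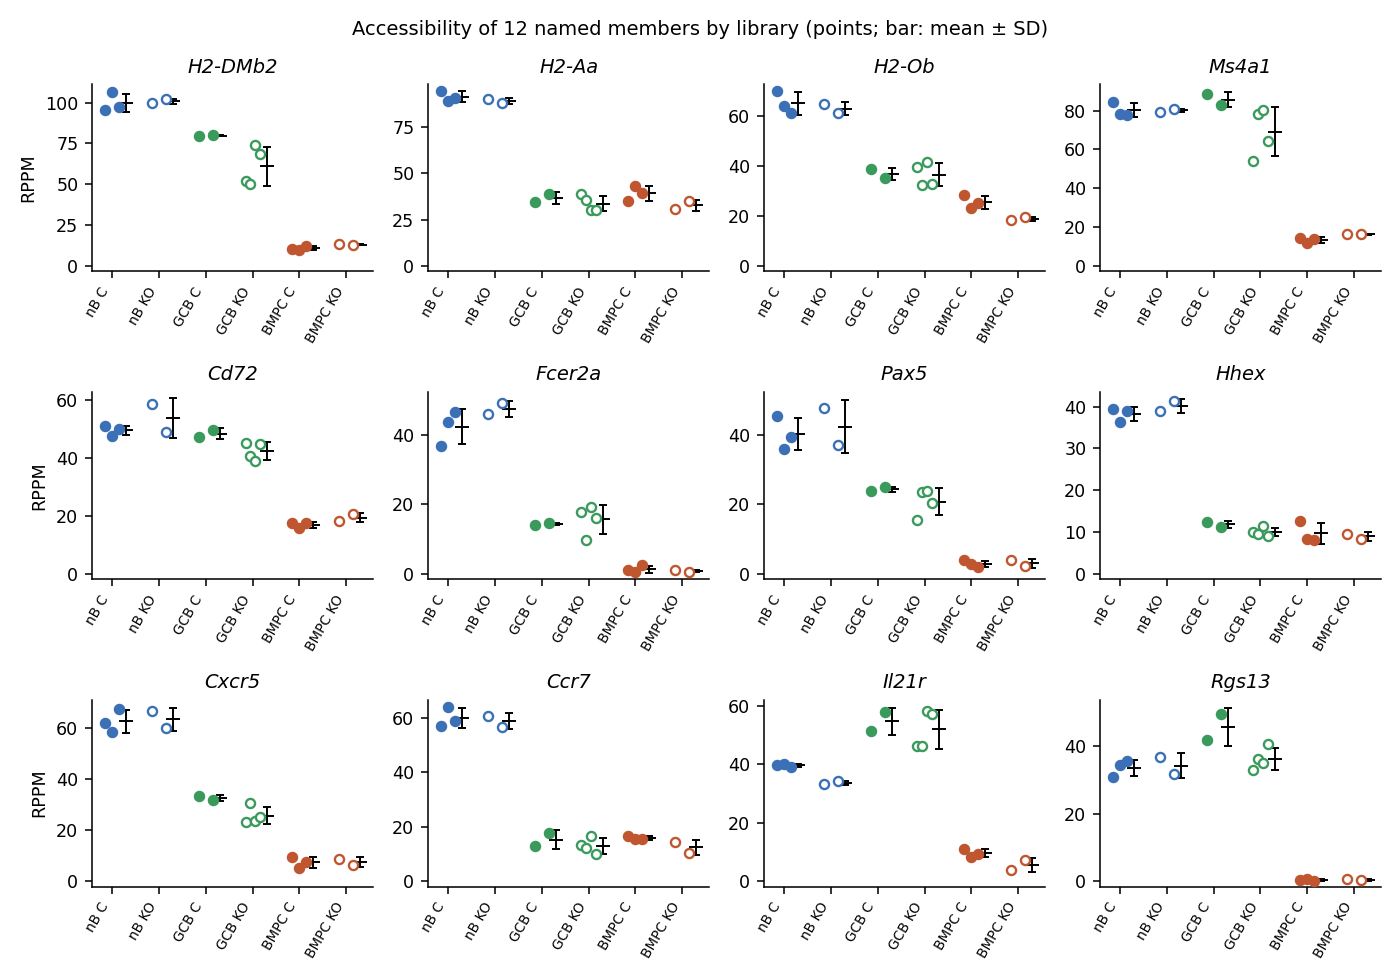
Level (RPPM) of 12 named closing promoters in each library of the 6 groups, as points with mean ± SD beside them, where filled points are C and open points KO. H2-Aa, Hhex and Ccr7 lie in GCB at their BMPC level, Rgs13 lies in GCB at or above its nB level, and Fcer2a, Pax5 and Cxcr5 lie between.

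The germinal center list held 2 closing promoters, and of its 16 promoter regions 2 were called lower and 5 higher in KO BMPC than in KO nB. Rgs13, a regulator of G protein signaling, had 30.9, 34.3 and 35.5 RPPM (C) and 36.8 and 31.7 (KO) in nB, 41.8 and 49.7 (C) and 33.0, 36.3, 35.1 and 40.5 (KO) in GCB, and 0.390, 0.547 and 0.156 (C) and 0.486 and 0.187 (KO) in BMPC. The nB and GCB libraries overlapped, BMPC stood near 0, and the change from KO nB to KO BMPC was -4.73 ± 0.23 (adjusted p 5.75e-15) and from KO GCB -4.81 ± 0.20. Fas, the death receptor, had a closing region 1904 bases upstream that changed by -1.05 ± 0.25, while its start region was among those more open in C BMPC and had 18.1 and 18.5 RPPM in KO nB and 30.4 and 31.5 in KO BMPC. The other lists gave few members. The plasma cell list had 0 closing promoters, with 0 of its 26 promoter regions called lower and 5 called higher in KO BMPC. The DNA methylation and Polycomb list had 0, with 0 of 17 regions lower and 1 higher. The cell division list had 1 in its 31 promoter regions, of Ccnd3, a D-type cyclin, which had 21.2 and 18.7 RPPM in KO nB and 12.5 and 12.3 in KO BMPC and was not called (adjusted p 0.0331).

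Among all 842, the largest fall between KO nB and KO BMPC was that of Chil4, a chitinase-like protein gene, whose region at chr3:106024255-106025076 had 66.7, 55.6 and 62.0 RPPM (C) and 61.4 and 58.6 (KO) in nB, 35.2 and 30.0 (C) and 45.2, 28.6, 43.4 and 36.4 (KO) in GCB, and 1.56, 0.182 and 0.311 (C) and 0.607 and 0.560 (KO) in BMPC. Its log2 change was -5.27 ± 0.27 (adjusted p 1.99e-14), and its GCB libraries lay between nB and BMPC. Insig2, which holds back the processing of sterol regulators, had 40.4, 41.3 and 39.5 RPPM (C) and 42.3 and 47.4 (KO) in nB, 48.8 and 48.2 (C) and 43.0, 41.4, 57.0 and 35.7 (KO) in GCB, and 1.95, 2.01 and 1.09 (C) and 1.09 and 0.373 (KO) in BMPC. GCB lay at the nB level here and only BMPC was near 0, with a change of -4.75 ± 0.24. Gm8369 (-5.03 ± 0.30), Lpp (-4.66 ± 0.29), a protein of cell adhesion sites, Gapt (-4.64 ± 0.36), an adaptor of B cells, Irgc1 (-4.47 ± 0.28), Lilra6 (-4.45 ± 0.36) and Wfdc17 (-4.44 ± 0.41) followed, with Fcer2a and Rgs13 above. Lilra6 belongs to a multigene family whose reads could have been split. In KO BMPC these 10 promoters had 0 to 1.87 RPPM per library, a few reads, so their log2 changes depend on the 1 RPPM added before taking logs.

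The highest levels were those of promoters at gene starts that kept part of their opening. Dusp2, a phosphatase of MAP kinases, had 163, 167 and 169.5 RPPM (C) and 161 and 149 (KO) in nB, 117 and 122 (C) and 117, 128, 135 and 116 (KO) in GCB, and 51.9, 52.2 and 46.6 (C) and 43.4 and 42.2 (KO) in BMPC, and the groups of the 3 cell types did not overlap. Zbtb10 changed by -1.32 ± 0.19, Ccdc50 by -1.13 ± 0.14, and Fam49b by -1.32 ± 0.14. At the other end, 7 of 842 promoters had a positive difference. Cep250, a centrosome protein gene, had 5.36, 3.96 and 6.70 RPPM (C) and 4.44 and 6.30 (KO) in nB, 0.880 and 1.87 (C) and 2.20, 1.27, 1.32 and 2.80 (KO) in GCB, and 0.650, 0.547 and 0.311 (C) and 7.90 and 9.52 (KO) in BMPC. KO BMPC lay above the 5 nB libraries, with a log2 difference of 0.62 ± 0.37 that was not called (adjusted p 0.176), and C BMPC lay below them. The differences of Cds1, Rab30, Mgmt, a DNA repair gene, and 9030617O03Rik were 0.61 ± 0.41, 0.18 ± 0.31, 0.11 ± 0.28 and 0.07 ± 0.33.

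GCB were also compared with nB and with BMPC in KO libraries. GCB were sorted for binding PE and BMPC were not, and an order in time of these cells was not tested. The comparisons share the KO GCB libraries, or the KO nB or KO BMPC libraries with the one above, so their counts are set side by side only. From KO nB to KO GCB, 249 of 842 (29.6%) were called lower and 29 (3.44%) higher. Over all regions 7.84% were lower and 18.4% higher, and over promoter regions 7.31% and 10.4%. The median log2 change was -0.60, beside 0.12 over all regions and -0.22 over promoter regions. From KO GCB to KO BMPC, 442 (52.5%) were called lower and 8 (0.95%) higher, beside 19.9% and 12.1% of all regions and 7.38% and 11.5% of promoter regions, with a median of -1.10. Mean KO GCB levels lay between those of KO nB and KO BMPC at 569 promoters (67.6%), at or above KO nB at 196 (23.3%) and at or below KO BMPC at 77 (9.14%). In C, 602 (71.5%), 182 (21.6%) and 58 (6.89%) did so, where the rule had set nB above BMPC.

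**Figure D4:**
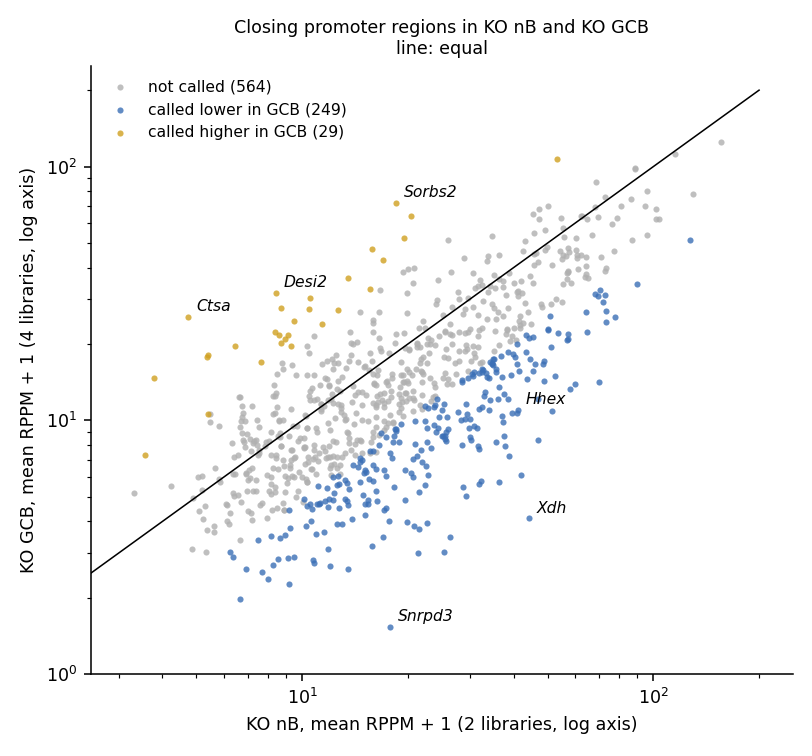
Mean level in KO nB (horizontal, 2 libraries) against mean level in KO GCB (vertical, 4 libraries), both as RPPM + 1 on log axes, for the 842 closing promoters, with a line of equal levels. The 249 promoters called lower in GCB lie below the line and the 29 called higher, such as Ctsa and Sorbs2, above it.

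The same counts were taken for the gene groups. Of the 14 MHC class II promoters, 9 were called lower in KO GCB than in KO nB and 5 lower in KO BMPC than in KO GCB. Of the 19 transcription factor promoters it was 10 and 2, with 1 higher in KO BMPC than in KO GCB, and of the 8 homing promoters 5 and 3. Of the 18 receptor promoters it was 4 and 13, of the 11 cytokine promoters 2 and 8 (and 2 higher in KO GCB), and of the 2 germinal center promoters 0 and 2. Over all promoter regions of a list, closing or not, the step from KO GCB to KO BMPC gave 6 lower and 2 higher of 29 for MHC class II, 13 and 3 of 57 for the receptor list, 3 and 11 of 81 for transcription factors, 3 and 4 of 28 for homing, 8 and 5 of 37 for cytokines and 6 and 1 of 16 for the germinal center list. From KO nB to KO GCB it was 12 and 2, 7 and 1, 23 and 0, 9 and 0, 4 and 2, and 1 and 7. Differences between the lists were not tested.

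The largest falls from KO nB to KO GCB were those of Snrpd3, a splicing factor gene (-3.63 ± 0.38), Xdh, xanthine dehydrogenase (-3.61 ± 0.35), Wfdc17 (-3.18 ± 0.36), Scn2b, a sodium channel subunit (-3.05 ± 0.38), and Tmem26 (-2.93 ± 0.37). At the Snrpd3 region, 1709 bases downstream of the start, KO GCB had 0, 1.27, 0.877 and 0 RPPM, where KO nB had 17.9 and 15.7. Xdh had 42.8 and 43.9 in KO nB, 1.10, 3.82, 6.14 and 1.40 in KO GCB and 3.52 and 2.43 in KO BMPC, so GCB and BMPC overlapped. Rises were seen where a promoter peaked in GCB. Ctsa, the lysosomal cathepsin A gene, had 8.04, 3.20 and 3.91 RPPM (C) and 3.95 and 3.54 (KO) in nB, 26.4 and 30.0 (C) and 16.5, 26.7, 30.7 and 24.5 (KO) in GCB, and 0.390, 0.547 and 1.09 (C) and 1.21 and 1.31 (KO) in BMPC in a region 1279 bases upstream. All 6 GCB libraries lay above all others, with a change from KO nB of 2.40 ± 0.30 (adjusted p 2.08e-07) and to KO BMPC of -3.47 ± 0.30. Sorbs2, an adaptor of the cytoskeleton, rose by 1.97 ± 0.20 to 70.9 ± 9.27 RPPM and stood at 1.56 ± 0.365 in KO BMPC. The Il21r region 1516 bases upstream rose by 1.96 ± 0.25, Desi2 by 1.93 ± 0.24 and Itgb8, an integrin subunit, by 1.79 ± 0.30.

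Few of these promoters were called between KO and C. In GCB, which the rule did not use, 0 of 842 were called lower and 0 higher in KO than in C by limma, beside 0% and 0.0317% of all regions. At an unadjusted p under 0.05, 45 were lower and 54 higher, and the share over all regions was not counted for this comparison. On the recovered reads edgeR and DESeq2 called 0 in either direction. Over all regions edgeR called 0 lower and 1 higher in GCB, and DESeq2 0 and 0. In BMPC and nB the C libraries also chose the promoters, so the values there are a description. In BMPC limma called 2 lower and 4 higher (all regions 0.0136% and 0.0907%). There edgeR called 6 lower and 19 higher, beside 239 and 962 of all 66177 regions. DESeq2 called 4 and 11, beside 85 and 404 of all regions, so these counts turn with the test. In nB limma called 0 and 0 (all regions 0% and 0%). At an unadjusted p under 0.05, 5 were lower and 3 higher in nB, and the share over all regions was not counted. The change from nB to BMPC in KO minus that in C was called at 0 of 842 (all regions 0%), with 77 higher and 21 lower at an unadjusted p under 0.05, beside 3470 of the 66177 regions in either direction. The change in C chose the promoters, so these counts too are a description, and the part of that choice in them was not tested. Without the first C BMPC library, 13 were higher in KO BMPC, and with either KO BMPC library left out 0 were. Counts over all regions with a library left out were not taken. The named ones in BMPC were Cep250 (2.69 ± 0.34), 9030617O03Rik (1.61 ± 0.30), Mgmt (1.35 ± 0.25) and the upstream region of Chd7, a chromatin remodeler (1.33 ± 0.23), all higher in KO, and Slamf1, a lymphocyte surface receptor (-1.20 ± 0.21), and Vopp1 (-1.18 ± 0.19), lower. Mgmt had 28.3, 26.0 and 28.5 RPPM (C) and 20.9 and 28.1 (KO) in nB, 22.9 and 46.4 (C) and 16.5, 22.3, 17.5 and 30.1 (KO) in GCB, and 13.3, 7.66 and 9.03 (C) and 23.8 and 29.1 (KO) in BMPC. Its KO BMPC libraries lay above the 3 C BMPC libraries and within the range of the nB and GCB libraries combined. Slamf1 had 6.76, 7.66 and 7.16 RPPM in C BMPC and 2.92 and 2.24 in KO BMPC. The promoters of Dnmt3a and Dnmt3b had similar levels in C and KO, which does not bear on the deletion, since the floxed exons lie elsewhere.

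The closing promoters lay both on and beside gene starts. Of 842, 423 (50.2%) overlapped the start the table gives, beside 67.0% of the 1417 promoters that opened by the mirror image of the rule, 88.9% of the 10125 stable ones and 79.1% of all. The rest lay within 2484 bases of it. Their median width was 591.5 bases, beside 768 for opening, 1063 for stable and 948.5 for all promoter regions, and the part of width in the share on a start was not tested. An exon was overlapped by 55.2% and an intron by 59.0%. Those on a start had a median KO nB level of 21.3 RPPM and those off it 14.1, and 79.7% and 75.9% were called lower in KO BMPC, with medians of -1.62 and -1.67. Chromosome 7 carried 10.3% of the closing and 7.78% of all promoter regions.

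Part of the genes had another promoter region that stayed open. Of the 842, 347 (41.2%) had a stable promoter region of the same gene, which was so for 61.3% of those off a start and 21.3% of those on one. An opening region of the same gene was found for 32 closing regions when genes were matched by identifier. Matched by gene name, 26 genes had both, with 28 closing regions, 16 of them called lower in KO BMPC, and 26 opening regions, 19 of them called higher. Of the following examples Cd22 and Akap13 were chosen after their values were seen. Cd22, an inhibitory coreceptor, had a closing region with 23.9 and 22.6 RPPM in KO nB and 1.94 and 0.373 in KO BMPC (log2 change -3.59), a stable one (-0.40) and, 1003 bases upstream, an opening one with 2.30 and 2.76 and 8.38 and 6.91 (1.29, adjusted p 0.0263, not called). The 3 lay within a few kilobases. Akap13, a scaffold protein with many starts, had an opening region that rose by 2.43 and 2 closing ones that were not called (-0.62 and 0.05). Ccr6 had 2 stable regions between its closing ones, with differences of 0.51 and 0.70 that were not called. Regions of 1 gene share their surroundings and are not independent.

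Some closing promoters lay near each other in the genome. Within chr17:34375428-34514708, the MHC class II locus with H2-Ob, H2-Ab1, H2-Aa, H2-Eb1, H2-Eb2, Btnl2 and Btnl1, 12 of 14 promoter regions were closing, and in chr17:34184252-34290484, with H2-Oa and the H2-DMb genes, 5 of 7. All 5 promoter regions of the Ifit cluster of interferon-induced genes at chr19:34624877-34682712 were closing, as were 5 of 6 around Mir142, 4 of 5 at Lst1, Ltb, Tnf and Lta, 4 of 6 at Cd79a and Arhgef1, 4 of 5 around Apoe, 4 of 4 at the Trem genes and 4 of 8 at Mybpc2, Spib and Napsa. The Pira and Lilra6 stretch had 4 of 4, in a multigene family whose reads could be shared. Members of a stretch lie at most 50000 bases apart.

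In sequence the closing promoters were poor in CpG. In the 300 bases at the region centre the median observed over expected CpG ratio was 0.29, beside 0.59 in opening, 0.82 in stable and 0.76 in all promoter regions, and it reached 0.6 in 22.8%, 49.5%, 78.1% and 66.8% of them. Within the closing promoters it was 0.45 on and 0.22 off a gene start, and for the stable ones 0.85 and 0.38. CpG-rich and CpG-poor closing promoters both fell in KO: 73.4% of the 192 with a ratio of at least 0.6 were called lower (median -1.39) and 79.1% of the other 650 (median -1.73).

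Of 8 short motifs searched on both strands, 3 differed most between closing and stable promoters. The PU.1/ETS core GGAAGT was in 40.9% of closing, 16.9% of opening, 25.5% of stable and 25.2% of all promoter windows. The letters AANNGAAA, part of the site of IRF factors, were in 32.3%, 22.7%, 14.9% and 17.8%, and the GC box GGGCGG in 28.1%, 49.8%, 63.9% and 57.3%. The share with GGAAGT was 33.1% on and 48.7% off a gene start in closing promoters, and 25.3% and 27.2% in stable ones. For the IRF letters it was 23.9% on and 40.8% off a start in closing promoters. In opening promoters it was 13.3% and 41.8%, and in stable ones 12.9% and 30.7%. Off a start, closing and opening promoters thus held the IRF letters at similar shares. The other motifs were the EBF1 letters CCCNNGGG (17.8% of closing and 21.0% of all windows), the octamer ATGCAAAT (2.61% and 1.61%), the E-box CAGCTG (19.2% and 17.6%), the NF-Y letters CCAAT (26.8% and 28.4%) and GAAAGT, part of the Blimp-1 site (15.7% and 11.9%). AANNGAAA and GAAAGT can share letters. Over whole regions, which are wider for stable promoters, GGAAGT was in 52.1% of closing and 57.5% of stable ones and the IRF letters in 47.6% and 52.6%, so both orders turn with the window. Closing promoters with GGAAGT in the window were called lower in KO BMPC in 78.5% of 344 cases and those without in 77.3% of 498. Of the 249 promoters lower in KO GCB, 44.2% had GGAAGT and 1.61% the octamer, and of the 29 higher there, 48.3% and 13.8%. A motif match is a match of letters and was not tested for binding, and 49.2% of the windows overlap an exon.

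**Figure D5:**
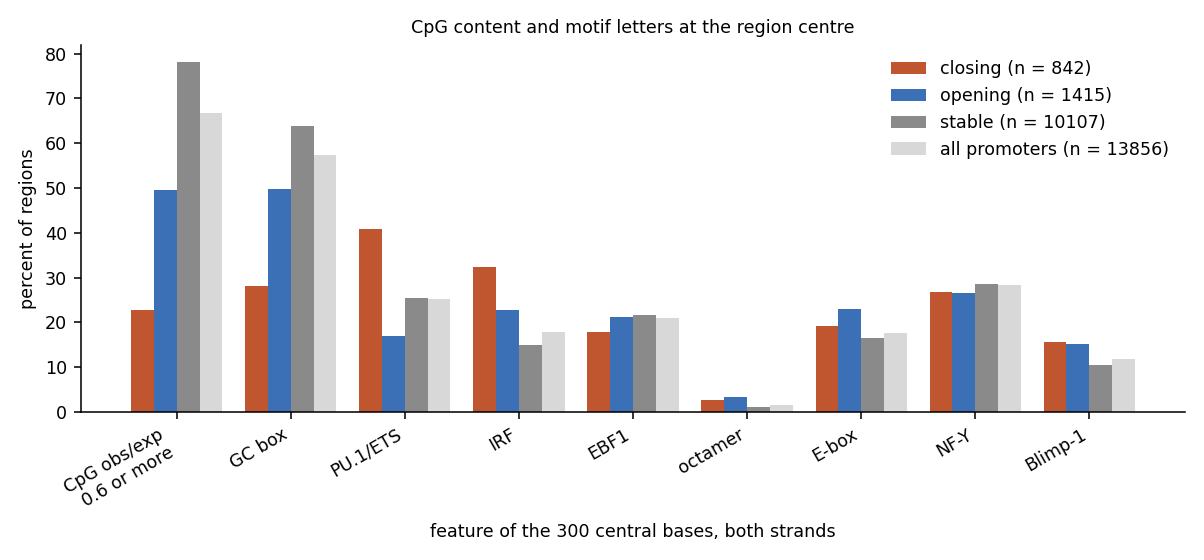
Percent of closing, opening, stable and all promoter regions whose 300 central bases reach a CpG ratio of 0.6 or hold each of 8 motifs on either strand. Closing promoters have the highest share with the PU.1/ETS letters, 40.9%, and the lowest share of CpG-rich windows, 22.8%.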

How the data were processed

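ATAC-seq was made from sorted cells of 16 libraries in 6 groups. The authors mapped reads to mm9 with Bowtie, called peaks per sample with MACS2 (versions 1.1.1 and 2.1.0.20140616 in the submitters' processing notes, other versions in the methods), joined them into 1 set of regions and deposited the reads per 1000000 reads in regions (RPM, named RPPM here). Another KO BMPC sample, which per the labels the authors removed for an aberrant number of reads in peaks, was not analysed here. Deposited columns of the authors' comparisons (log2 fold changes, likelihood ratios, p-values and FDR) were not used.

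The main test was limma 3.58.1 (trend, eBayes) on log2(RPPM + 1), with 1 mean for each of the 6 groups over all 16 libraries, and Benjamini-Hochberg adjustment over 66177 regions. Calls needed both an adjusted p not above 0.01 and a log2 change of 1 or more in size. RPM steps gave whole reads for 100% of values, so edgeR 4.0.16 and DESeq2 1.42.0 were run on these recovered reads as alternatives. edgeR called 28830 regions between KO nB and KO BMPC, where limma called 23350. The spread of 2 to 4 libraries sets the precision. The paper's mouse numbers match 1 mouse per nB or BMPC library and pools of 2 mice per GCB library. The spread thus includes that between animals. Counting error only is reflected in read numbers.

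Of the 842 regions, 806 were named from the table, 34 through RefSeq and 2 had no name, and 35 had several genes. Named in the text were list members by KO nB level (up to 8 a list), the 10 largest and 5 smallest falls, the 5 highest, those called between KO and C, the 3 nearest the limit on each side and the 5 largest changes each way to GCB. Results for a few genes that this rule takes in are not reported here. The members and gene lists were chosen with earlier results of these data known. Sequences were read from the mm9 genome (22 of 31 chromosome names matched, 0 regions beyond an end). Motifs were searched in the 300 central bases. Alternatives were other pseudocounts, filters, scalings, tests, limits and left-out libraries. Scripts were tested on simulated data.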

Additional observations from a re-analysis of the deposited data

Results flagged for a closer look

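Of 75 named closing promoters, 2 had a library far from the other 3 in KO GCB, by Dixon's ratio against its 95% limit of 0.829 for 4 samples. The H2-Ab1 region had 22.9 RPPM in the second KO GCB library, with 29.7, 22.9, 29.8 and 30.8 in all 4 (ratio 0.869). The Siglecg region had 44.3 RPPM in the third, with 30.8, 29.9, 44.3 and 30.1 in all 4 (ratio 0.936). Chance gives about 1 such value in 20 groups.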

How the results depend on the processing

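The 655 promoters called lower from KO nB to KO BMPC ranged from 485 to 727 over pseudocounts of 0.1 and 5 RPPM, a filter of 1 RPPM, TMM and quantile scaling, a fit of the compared groups alone, edgeR, DESeq2 and an adjusted p of 0.05, and from 559 to 673 with 1 library left out. Over all 66177 regions, 6260 were called lower with a pseudocount of 5 RPPM and 14108 with edgeR. Of the narrower set with a C ratio of at least 4, 390 of 408 were called lower. Over all regions a pseudocount of 5 RPPM called 2366 lower and 4643 higher from KO nB to KO GCB. From KO GCB to KO BMPC it called 6019 and 4081, and quantile scaling called 10270 higher. Of the closing promoters, this pseudocount gave 147 lower and 18 higher from KO nB to KO GCB. It gave 274 lower and 4 higher from KO GCB to KO BMPC. Quantile scaling gave 14 higher in the latter and shifted the median of all regions by -0.19 from KO nB to KO GCB and by 0.12 from KO GCB to KO BMPC. With 1 library left out these 4 counts ran from 173 to 256, 23 to 34, 368 to 444 and 5 to 8. For KO against C in GCB, 3 were higher at an adjusted p of 0.05, and with 1 library left out 0 to 1 were lower and 0 to 2 higher. For KO against C in BMPC over all regions, a pseudocount of 5 called 6 lower, the compared groups alone 24 and quantile scaling 2. A pseudocount of 0.1 called 43 higher there and quantile scaling 12. Of the closing promoters, 2 lower became 0 with a pseudocount of 5 or the compared groups alone and 1 with quantile scaling. This count became 6 with edgeR and 4 with DESeq2 or an adjusted p of 0.05. The 4 higher there became 2 with a pseudocount of 0.1, 1 with quantile scaling, 19 with edgeR, 11 with DESeq2 and 12 at an adjusted p of 0.05. With 1 library left out they ran from 0 to 3 and from 0 to 13, and without C BMPC replicate 1 it was 13. Counts over all regions were not taken at an adjusted p of 0.05 or with a library left out. In nB, 0 of the closing promoters were called under every alternative run. Over whole regions in place of 300 bases, GGAAGT was in 52.1%, the GC box in 36.8% and the IRF letters in 47.6% of closing promoters, and the share in closing minus that in stable promoters turned from 15.3 to -5.33 percentage points for GGAAGT and from 17.4 to -5.02 for the IRF letters, stable regions being wider. Among the named promoters, 31 values came to pass the limit and 105 no longer passed it. The other 2696 were counted as unchanged, and 0 values called in the main test reversed. A change of direction in a value not called in the main test was not counted. Pool labels paired C and KO GCB in name only (correlations of deviations 0.036 and 0.064), and with the replicate block 0 were lower and 0 higher in KO GCB. GCB libraries have the fewest reads and so the least certain low values. The causes of these shifts, other than the width of regions, were not tested.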
